A study of Arabidopsis thaliana with 12 samples.

Results

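The genes described here act in photosystem II maturation and the thylakoid lumen and are 3 in number: LPA19 (AT1G05385), AT5G46390, a C-terminal processing peptidase, and AT1G76450, of the PsbP family. They were chosen by gene identifier, with the difference between flu mutant and wild type (WT) on these arrays already known, so that difference is given as a description of the 3 genes and is not tested. Each was measured by 1 feature that lists it alone, that is 3 of the 692 features with exactly 1 gene and of 3439 features in all. AT5G46390 was also listed together with other genes on a further feature, which was not used.

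Photosystem II is the complex that splits water in the thylakoid membrane, and it is built and repaired stepwise with the help of factors that are not part of the finished complex. Its reaction centre protein D1 is made as a precursor, and a peptidase in the lumen trims the C-terminal end before the manganese cluster can form. LPA19 is a lumen protein of the Psb27 family that in Arabidopsis assists this trimming, C-terminal processing peptidases are the enzyme family that carries it out, and PsbP proteins are lumen proteins of which the founding member stabilises the water-splitting site.

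All 12 arrays measured total RNA of Arabidopsis thaliana, ecotype Landsberg, after 12 h of darkness, 6 arrays from WT plants and 6 from the flu mutant. The flu mutant lacks FLU, which restrains chlorophyll synthesis. The comparison asks which transcripts differ between both genotypes in the dark. No age, tissue, array type or scaling is stated in the labels. Nothing in the labels ties an array to a plant or a culture, so the spread between arrays, and every p-value built on it, may be technical.

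The values are linear intensities in the authors' scaled units, with array medians of 0.443 to 0.491 in WT and 0.426 to 0.442 in flu and with 108 to 165 features at exactly 0 on each array. None of the 3 genes had an array at 0 or below the floor of 0.0236 that was set for the log2 scale. Arrays 1 and 2, 3 and 4, and 5 and 6 of a genotype, called couples here, had Spearman correlations of 0.909 to 0.967 over all features. Arrays of different couples of 1 genotype had 0.780 to 0.942, which overlaps that range, and the labels name no couples. Each SD beside a mean intensity is over 3 couple means, in case arrays of a couple are not independent. FLU and the chosen leaf, root, seed and pollen markers had no feature of their own, so neither the mutation nor the tissue was checked. In a bulk sample, fewer cells of a type and less RNA per cell cannot be told apart.

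LPA19 was lower in flu. Its intensity on WT arrays 1 to 6 was 0.705, 0.724, 0.685, 0.678, 0.755 and 0.972. On flu arrays 1 to 6 it was 0.267, 0.306, 0.313, 0.317, 0.314 and 0.326. All flu arrays lay below all WT arrays, and both genotypes likewise did not overlap, in either direction, for 37.1% of all features. WT array 6 stood above the other WT arrays, and the flu arrays lay close together. The means were 0.753 ± 0.0968 in WT and 0.307 ± 0.0183 in flu (SD, n = 3 couple means), so WT was 2.45-fold higher. The nearest arrays of both genotypes were 2.08-fold apart, while arrays of 1 couple differed by at most 1.29-fold.

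AT5G46390, the C-terminal processing peptidase, was higher in flu. It stood at 0.247, 0.138, 0.253, 0.272, 0.172 and 0.180 on WT arrays 1 to 6. On flu arrays 1 to 6 it stood at 0.955, 0.634, 1.01, 1.31, 1.19 and 1.02. The genotypes did not overlap, and array 2 was the lowest array of each genotype. The means were 0.210 ± 0.0460 in WT and 1.02 ± 0.198 in flu (SD, n = 3 couple means), a 4.85-fold higher intensity in flu. The nearest arrays were 2.33-fold apart, and arrays of 1 couple differed by up to 1.79-fold, in WT arrays 1 and 2.

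AT1G76450, of the PsbP family, was lower in flu. Its intensity was 0.704, 0.482, 0.577, 0.621, 0.469 and 0.460 on WT arrays 1 to 6. On flu arrays 1 to 6 it was 0.0868, 0.189, 0.0374, 0.119, 0.131 and 0.187. Again every flu array lay below every WT array, and the flu arrays spread widely, with array 3 the lowest. The means were 0.552 ± 0.0760 in WT and 0.125 ± 0.0420 in flu (SD, n = 3 couple means), or 4.42-fold higher in WT. The nearest arrays were 2.43-fold apart, while flu arrays 3 and 4 of 1 couple differed by 3.17-fold.

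**Figure D1:**
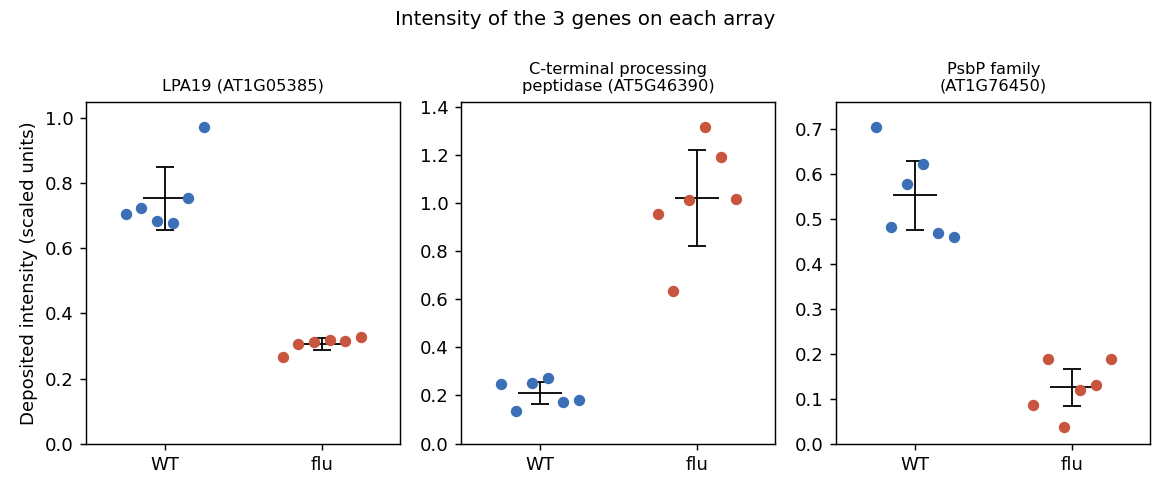
Deposited intensity (scaled units, linear axis from 0) of LPA19, AT5G46390 and AT1G76450 on the 6 WT and 6 flu arrays, ordered by array number within each genotype. Points are arrays, horizontal bars the mean and vertical bars the SD of 3 couple means; LPA19 and AT1G76450 are lower on every flu array, and AT5G46390 is higher on every flu array.

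The spread among arrays differed between the genes. The coefficient of variation over 6 arrays was 14.7% in WT and 6.81% in flu for LPA19. For AT5G46390 it was 25.7% and 22.7%. AT1G76450 had 17.9% in WT and 46.9% in flu.

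The rank of each gene among all 3439 features of an array does not depend on how that array was scaled as a whole. LPA19 lay between the 66.5th and 82.1st percentile on WT arrays and between the 30.5th and 38.9th on flu arrays. AT5G46390 moved in the other direction, from the 10.6th to 22.6th percentile in WT to the 67.5th to 89.5th in flu. AT1G76450 lay between the 50.2nd and 71.2nd percentile in WT and between the 6.05th and 20.8th in flu. AT5G46390 in WT and AT1G76450 in flu thus both lay at the dim end, and signal over background was not analysed here, which limits how exactly their folds are known.

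On the quantile-normalised log2 scale, on which fold changes are given from here on, the change in flu was -1.14 for LPA19, 2.54 for AT5G46390 and -2.00 for AT1G76450. Among the 692 features with 1 gene, AT5G46390 had the 5th highest change, AT1G76450 the 6th lowest and LPA19 the 54th lowest. Without quantile normalisation the values were -1.29, 2.29 and -2.31, on a scale whose median over all features was -0.20 against -0.04 with it.

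**Figure D2:**
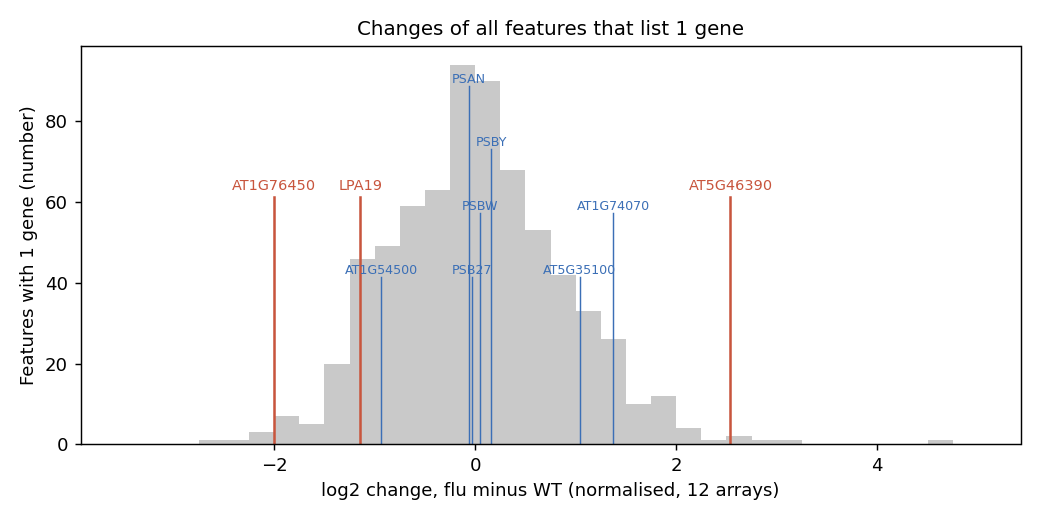
Histogram of the log2 change (flu minus WT, quantile-normalised, 12 arrays) of the 692 features that list 1 gene, with the number of features on the vertical axis. Red lines mark the 3 genes and blue lines the 7 other measured genes of the photosystem II and lumen lists; line height has no meaning, and AT5G46390 and AT1G76450 lie near opposite ends.

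The limma fit of flu against WT over all 3439 features called 1796 of them, or 52.2%, at a Benjamini-Hochberg adjusted p below 0.05. All 3 genes were among them, and all 3 were also called with couples averaged, a fit that called 34.7% of all features. They were chosen from this contrast, so nothing is read from those counts.

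The size of the change varied between couples, while its direction is fixed by the lack of overlap. Each value here is a flu couple minus the WT couple of the same number, a pairing that the labels do not give. The log2 change of LPA19 was -1.20, -0.96 and -1.27 in couples 1, 2 and 3. For AT5G46390 it was 2.26, 2.45 and 2.92. AT1G76450 varied most, at -1.94, -2.77 and -1.29. The change of AT1G76450 became -1.70 without flu array 3, its lowest array, and -1.99 without flu array 4 of the same couple.

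The difference between genotypes also followed the order of feature numbers, in 48 strips of 6 feature numbers that recur with a fixed period. The strips were built from feature numbers alone, and whether they match places on the array was not checked. Strips held 24.7% of the variance of the log2 change over all features. LPA19 belonged to the strip with the lowest mean change of all 48, at -0.67. Of the 75 other features in that strip 17 had a lower change than LPA19, and their median was -0.79. With the strip mean subtracted, the change of LPA19 was -0.48, and in the fit with couples averaged as well it was not called. The part of feature order in its change was not tested.

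AT5G46390 lay above and AT1G76450 below every other feature of its strip. The strip of AT5G46390 had a mean change of 0.37, and none of the 70 other features in it had a change as high, the nearest at 2.39. The strip of AT1G76450 had a mean of 0.47, opposite in sign to the gene, and none of its 75 other features fell as far, the lowest at -1.47. Centring left 2.17 for AT5G46390 and -2.47 for AT1G76450. Both were called in the fit on couple means after centring, which called 27.8% of all features. Both genes were chosen with this contrast known and lie near its ends. Nothing is therefore read from their places in their strips or from these calls. The part of feature order in their changes was not tested.

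**Figure D3:**
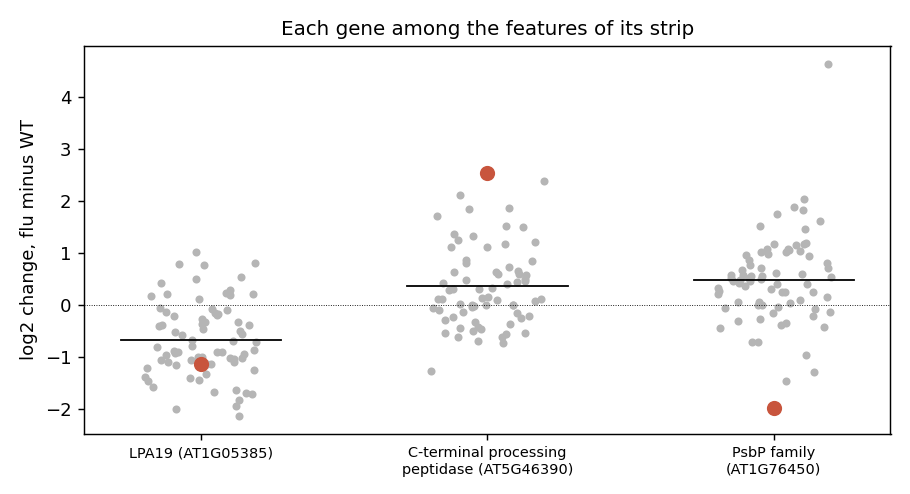
Log2 change (flu minus WT, quantile-normalised, 12 arrays) of every feature in the strip of each gene. Grey points are the other features of the strip, spread sideways at random, black lines the strip means (-0.67, 0.37 and 0.47) and red points the 3 genes; LPA19 lies among its strip, AT5G46390 above and AT1G76450 below theirs.

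**Figure D4:**
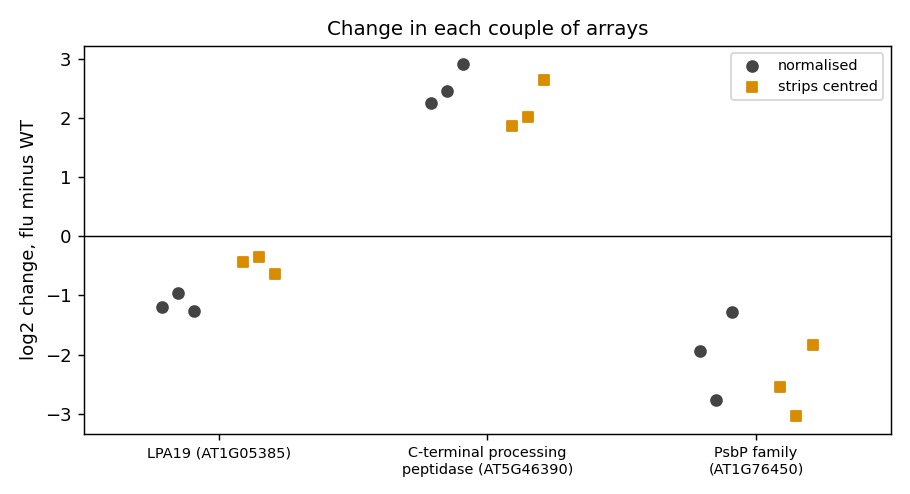
Log2 change (flu couple minus the WT couple of the same number) of each gene in the 3 couples of arrays, in couple order from left to right. Values are normalised (grey circles) and with strips centred (orange squares). LPA19 moves from between -1.27 and -0.96 to between -0.63 and -0.36 with strips centred, AT5G46390 lies between 1.87 and 2.92 in both, and AT1G76450 between -3.04 and -1.29.

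Few other genes of the same process could be read. Of 83 genes in 6 lists (D1 processing and the Psb27 family, PsbP and PsbQ families, photosystem II assembly and repair, nuclear photosystem II subunits, other lumen proteins, lumen import), 10 had a feature of their own, the 3 genes included. Over 12 arrays 2 of the other 7 were higher in flu, 1 was lower and 4 were not called, with a median log2 change of 0.05. Of all features 23.0% were called higher and 29.2% lower, with a median of -0.04. For the 7 genes below, limma p-values and confidence intervals are from the fit over 12 arrays unless another fit is named. That fit takes the arrays as independent.

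PSB27 (AT1G03600), the other measured member of the Psb27 family, was not called. Its intensity on WT arrays 1 to 6 was 0.520, 0.227, 1.41, 1.22, 1.34 and 1.28. On flu arrays 1 to 6 it was 0.537, 0.330, 0.881, 0.891, 1.11 and 1.18. The first couple was the lowest in both genotypes, and the genotypes overlapped. The log2 change was -0.04 ± 0.49 (SE, n = 6 arrays per genotype, limma adjusted p = 0.97), and its 95% confidence interval ran from -1.12 to 1.05. The value depended on the first couple, at -0.42 without WT array 2, -0.67 without WT arrays 1 and 2 and 0.37 without flu arrays 1 and 2. The difference between the changes of PSB27 and LPA19 was not tested.

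In the list of photosystem II assembly and repair, AT1G54500 was the 1 measured gene, and it was lower in flu. It stood at 1.20 ± 0.186 in WT and 0.597 ± 0.0479 in flu (SD, n = 3 couple means), and its genotypes did not overlap, with WT arrays from 1.04 to 1.57 and flu arrays from 0.446 to 0.698. The log2 change was -0.94 (limma adjusted p = 0.00012). It lay in a strip with a mean change of -0.54, and on couple means after centring its value was -0.39 (limma adjusted p = 0.097).

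Among the other lumen proteins, 2 of 3 measured genes were higher in flu. AT5G35100 rose from 0.565 ± 0.0576 to 1.10 ± 0.0608 (SD over 3 couple means), a log2 difference of 1.04 (limma adjusted p = 5.2e-06), with WT arrays from 0.496 to 0.638 and flu arrays from 0.985 to 1.25. On couple means after centring its value was 0.53 (adjusted p = 0.04998), just under the threshold, and it was the 1 gene of the 7 called in all 3 fits, as were 19.3% of all features. AT1G74070 rose from 0.821 ± 0.299 to 1.93 ± 0.0211 (SD over 3 couple means), a log2 difference of 1.37 (limma adjusted p = 0.00034), or 0.81 on couple means after centring (adjusted p = 0.12). The strips of these genes had mean changes of 0.51 and 0.56. PSAN (AT5G64040), a lumen subunit of photosystem I, had WT arrays from 4.76 to 8.96 and flu arrays from 4.70 to 6.48, which overlapped (log2 value of -0.06, 95% confidence interval -0.39 to 0.28, limma adjusted p = 0.78).

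The subunits of the finished complex were PSBW and PSBY, small membrane proteins of photosystem II. PSBW ranged from 13.5 to 20.9 on WT arrays and from 18.4 to 21.8 on flu arrays, with a log2 value of 0.05 (95% confidence interval -0.14 to 0.23, limma adjusted p = 0.67). It lay between the 99.4th and 99.6th percentile, where quantile normalisation gave several arrays the same value, such as 4.35 on WT arrays 1 and 2. Without quantile normalisation the log2 value of PSBW was 0.30 (limma adjusted p = 0.032), with all 6 flu arrays above the WT mean. PSBY ranged from 1.05 to 1.80 in WT and from 1.23 to 1.55 in flu, with a log2 value of 0.16 (95% confidence interval -0.11 to 0.44, limma adjusted p = 0.30). The ranges of both genotypes overlapped for each. Both lay in strips with negative means (-0.54 and -0.56), and centring alone brought them to 0.59 and 0.72, where both were called. AT1G54500, AT5G35100 and AT1G74070 were called with centring alone too (limma adjusted p = 0.014, 0.0013 and 0.017). On couple means after centring, the fit given above for those genes, PSBW was called (limma adjusted p = 0.028) and PSBY was not (adjusted p = 0.068).

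**Figure D5:**
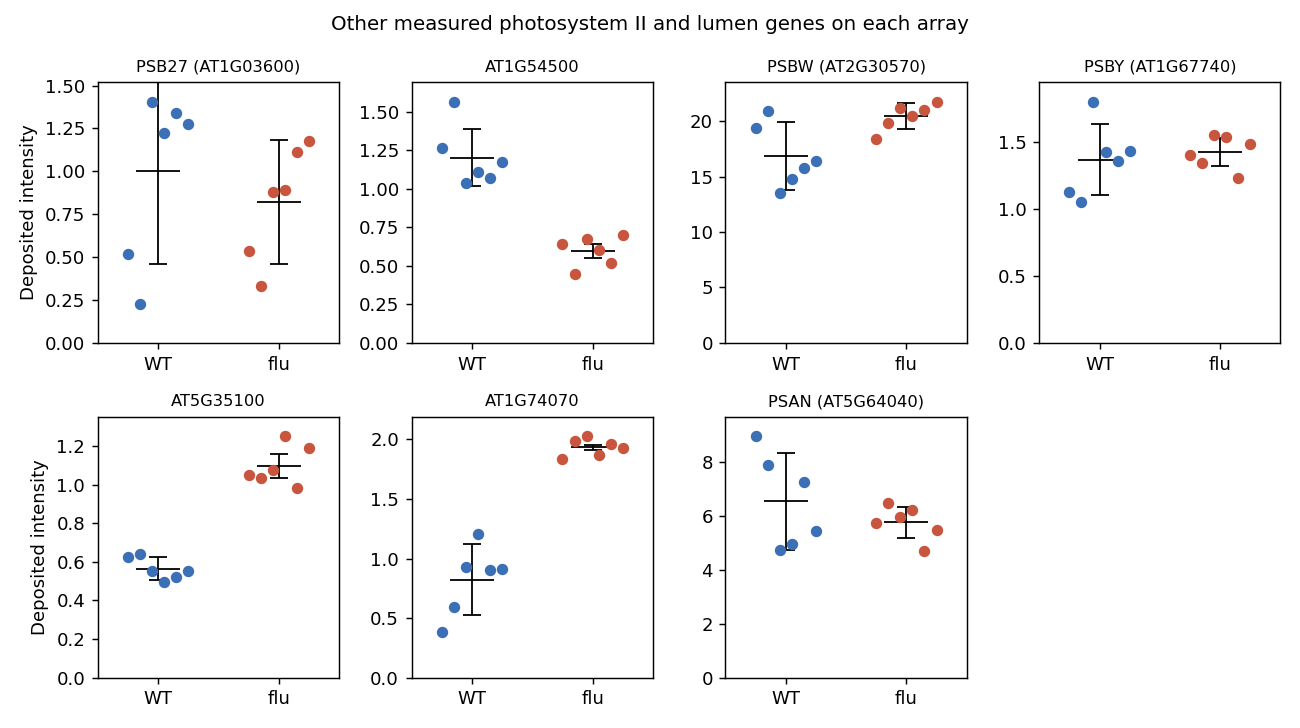
Deposited intensity (scaled units, linear axes from 0) of the 7 other measured list genes on the 6 WT and 6 flu arrays, ordered by array number. Points are arrays, horizontal bars the mean and vertical bars the SD of 3 couple means; AT1G54500 is lower and AT5G35100 and AT1G74070 are higher on every flu array, and the first 2 arrays of PSB27 are the lowest in both genotypes.

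The genes whose normalised log2 intensity followed each of the 3 most closely over the 12 arrays were taken from the 627 other features with 1 gene and no array at 0. For LPA19 these were AT4G31470, AT1G21660 and AT1G13990, with Pearson correlations of 0.98, 0.97 and 0.97. For AT5G46390 they were AT4G14330, AT1G49850 and AT4G35660 (0.98, 0.97 and 0.97), and for AT1G76450 AT4G37230, AT2G32040 and AT2G03390 (0.93, 0.92 and 0.91). All points share the split by genotype, and 7.97% of the 627 features correlated above 0.9 with LPA19, 4.63% with AT5G46390 and 0.957% with AT1G76450. When deviations from the genotype means were compared instead, AT4G37230 was again among the 3 nearest to AT1G76450 (0.73), and none of the nearest genes of LPA19 or AT5G46390 was. With strips centred, the log2 changes of AT4G31470, AT1G21660 and AT1G13990 shrank from -1.06, -1.14 and -1.11 to -0.45, -0.59 and -0.79. The part of feature order in the correlations was not tested.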

How the data were processed

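The deposited series table holds 1 linear intensity per feature and array, and how the authors scaled or background-corrected it, and on which array type, is not stated. A platform table named 1562 features, 692 with exactly 1 gene, of which 690 matched RefSeq (TAIR10.1) by gene identifier. Features with several genes (870) and unlisted ones (1877) stay unnamed.

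A floor was set at the 1st percentile of positive intensities, log2 was taken and arrays were quantile normalised. Flu was compared with WT in R 4.3.3 with limma 3.58.1 (lmFit, eBayes, two-sided, Benjamini-Hochberg over 3439 features) over 12 arrays without a block, with couples averaged, and with couples averaged and strips centred. The number of arrays limits the precision. Same-numbered WT and flu arrays deviated together (correlations of 0.368 to 0.539 over 6 pairs, a pattern in the data that the labels do not explain), so the numbers were treated as pairing them in an alternative fit. The fit was tested on simulated data. The 3 genes, gene lists, couples, strips and alternatives were chosen with earlier results of these data known. Every measured list gene is named, as are the 3 genes nearest to each of the 3 in pattern.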

Additional observations from a re-analysis of the deposited data

Results flagged for a closer look

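Among 20 groups of 6 arrays (10 genes in both genotypes), 2 held 1 array far from the remaining 5 on the normalised log2 scale, where chance gives about 1 in 20. For LPA19 (AT1G05385) flu array 1 had a normalised log2 intensity of -1.79, while the remaining flu arrays had -1.61 to -1.50, or 0.267 against 0.306 to 0.326 as deposited. Without that array the change of LPA19 was -1.10. For PSBW (AT2G30570) flu array 1 had a normalised log2 intensity of 4.03, while each of the remaining flu arrays had either 4.18 or 4.27. As deposited it had 18.4 against 19.8 to 21.8, a gap smaller than the spread of the remaining arrays. The flag for PSBW thus holds on the normalised scale only.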

How the results depend on the processing

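The change of LPA19 kept its sign in 28 alternatives. In 2 it moved by more than the larger SD of either genotype over 6 arrays (0.21 on the normalised log2 scale). It was then -0.48 with strips centred and -0.48 with couples averaged and strips centred. The change of LPA19 ran from -1.25 to -1.05 with an array or couple left out. AT5G46390 (2.17 to 2.74 over 28 alternatives) and AT1G76450 (-2.47 to -1.62 over 27, as it lies below the median intensity) kept sign. Both moved by less than the larger SD of either genotype over 6 arrays (0.37 for AT5G46390 and 0.81 for AT1G76450). The main fit called 1796 of 3439 features, and a fit on only the 1719 features above the median intensity called 1089. Where a log2 change of 1 or more in size was also asked for, 806 of the 1796 remained. On couple means 1193 features were called, and 956 on couple means after centring, 796 of these among the 1796. The replicate block gave 1966 and changed no call of the named genes. With arrays or couples left out the count ran from 1542 to 1875. As deposited, 34.0% of called features were higher in flu, against 44.0% after normalisation. PSBW was also called as deposited (0.30) and with median scaling (0.40), and PSBY without WT arrays 3 and 4 (0.29). PSAN turned to 0.45 with strips centred, and was called there but not on couple means after centring. The cause of these shifts was not tested, beyond fewer features or samples where these were left out. Signal over background was not analysed here.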
